A study of Mus musculus with 6 samples.

Results

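The 10 genes described here are cartilage regulators and cartilage matrix genes: Sox9, Sox5, Sox6, Nkx3-2, Pthlh, Pth1r, Acan, Hapln1, Matn1 and Comp. They are a list chosen by name out of 21883 protein-coding genes, and their Smad sites were taken as every peak whose summit lay inside the gene or within 50 kb of either of its ends. The sites came from chromatin immunoprecipitation followed by sequencing (ChIP-seq) of limb and of molar tooth germ at stage E13.5. All embryos were of the CD1 strain and labelled wildtype, and the labels name no treatment. Each tissue was precipitated once with an antibody to pSmad1/5 and once with an antibody to Smad4, so there was 1 library and 1 peak list for each of 4 groups, and 2 input libraries were not used here. The number of embryos behind a library is not stated in the labels, and whole limb and whole molar germ each hold several cell types. A peak list holds no expression values, so the labelled tissues could not be checked against marker genes. By this rule 172 of 123178 peaks belonged to the 10 genes.

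Bone morphogenetic proteins (BMPs) act through receptors that phosphorylate Smad1 and Smad5. The phosphorylated Smads join Smad4, enter the nucleus and bind DNA near target genes. In the limb, BMP signalling is needed for mesenchyme to condense into cartilage, where Sox9 and its partners Sox5 and Sox6 switch on the genes of the cartilage matrix. The molar germ at this stage is an epithelial bud in condensing mesenchyme and gives rise to no cartilage.

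In limb, all 10 genes had a Smad4 peak and 8 had a pSmad1/5 peak, the exceptions being Sox6 and Pthlh. In molar, 9 genes carried a pSmad1/5 peak, all but Nkx3-2, and 6 had a Smad4 peak. The 4 genes without a molar Smad4 peak were Sox9, Nkx3-2, Pth1r and Hapln1. By the same rule 68.0% of all protein-coding genes had a limb pSmad1/5 peak, 71.2% a limb Smad4 peak, 74.9% a molar pSmad1/5 peak and 68.0% a molar Smad4 peak. The members' counts were therefore near or somewhat above those shares in the first 3 lists and near it in the last, and with 10 genes and no replicate libraries no test was made. Most of this text concerns where the peaks lay and how they scored rather than whether a gene had one.

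The number of peaks per gene ran from 0 to 27. Limb gave 28 peaks for pSmad1/5 and 38 for Smad4, and molar gave 53 for each antibody. The molar totals were dominated by a pair of very long genes: Sox5 and Sox6 held 32 of the 53 molar pSmad1/5 peaks and 37 of the 53 molar Smad4 peaks, but 4 of 28 and 12 of 38 in limb. At the other 8 genes limb had 24 pSmad1/5 peaks against 21 in molar, and 26 Smad4 peaks against 16. Comp alone held 10 of these limb pSmad1/5 peaks and 9 of these limb Smad4 peaks, of which 9 and 8 were nearer to another gene. The lists also differ in their lowest scores, as described below. The limb share of the members' pSmad1/5 peaks was thus 34.6% (exact 95% binomial interval 24.3 to 46.0%) with all 10 genes and 53.3% without Sox5 and Sox6. For Smad4 it was 41.8% (31.5 to 52.6%) and 61.9%. Over the whole lists limb held 39.7% of pSmad1/5 peaks and 46.3% of Smad4 peaks. The intervals cover counting error over peaks only.

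**Figure D1:**
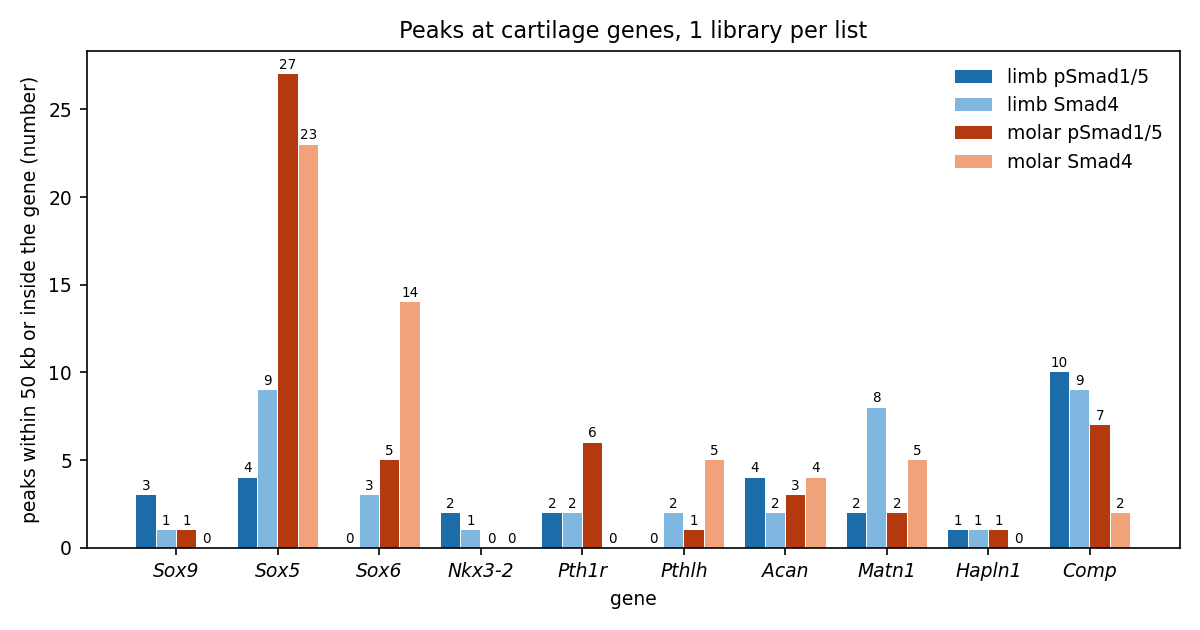
Number of peaks (y axis) with a summit within 50 kb of a gene end or inside the gene, for each of the 10 genes (x axis) in the 4 peak lists, with 1 library per bar and no error. Sox5 and Sox6 hold most molar peaks, with 27 and 23 at Sox5, whereas Sox9, Nkx3-2 and Hapln1 have at most 3 peaks in any list.

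Each peak carries an enrichment score given by the authors' peak caller, and the lists do not reach down to the same score on every chromosome. For Sox6, Acan and Matn1 the lowest score on the chromosome was 3, rounded down, in all 4 lists. For Sox5, Pthlh and Hapln1 the molar pSmad1/5 list went down to 2 while the other 3 lists stopped at 3. For Sox9, Nkx3-2, Pth1r and Comp the molar Smad4 list began at 4 and the others at 3. A limb and a molar count can thus be set side by side without this difference for both antibodies at the first 3 genes, and elsewhere for 1 antibody. Sequencing depth is unknown for every list, so a count of peaks is not an amount of binding.

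With all peaks, 4 of the 10 genes had more limb than molar pSmad1/5 peaks (Sox9, Nkx3-2, Acan and Comp), 4 had more molar peaks (Sox5, Sox6, Pth1r and Pthlh) and 2 had equal numbers. Among all protein-coding genes 30.0% had more limb and 43.3% more molar pSmad1/5 peaks. For Smad4, 6 genes had more limb peaks (Sox9, Nkx3-2, Pth1r, Matn1, Hapln1 and Comp) and 4 more molar peaks (Sox5, Sox6, Pthlh and Acan), against 42.8% and 32.2% of all genes. When both tissues were held to the same lowest score on each chromosome, the pSmad1/5 split became 6 to 2, with Sox5 and Hapln1 moving to the limb side and Pthlh to equal numbers, while the Smad4 split stayed 6 to 4. At that setting 39.9% of all genes had more limb and 28.4% more molar pSmad1/5 peaks, so genes in general moved toward limb as well. For Smad4 the shares were 31.4% and 37.6%.

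Peaks with a score of at least 4 were more often in limb than in molar at most of the 8 shorter genes for Smad4, and at 4 of the 8 for pSmad1/5. Of the 10 genes, 6 had such a limb pSmad1/5 peak (background 34.3% of genes), 8 a limb Smad4 peak (43.4%), 4 a molar pSmad1/5 peak (27.8%) and 4 a molar Smad4 peak (38.9%). More limb than molar pSmad1/5 peaks of this score stood at 4 genes (background 25.3%) and more molar at 2 (15.2%). For Smad4 the numbers were 7 with more limb peaks (30.9%) and 2 with more molar peaks (20.3%), the latter being Sox5 and Sox6. Without replicate libraries these counts cannot be set against a spread.

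**Figure D2:**
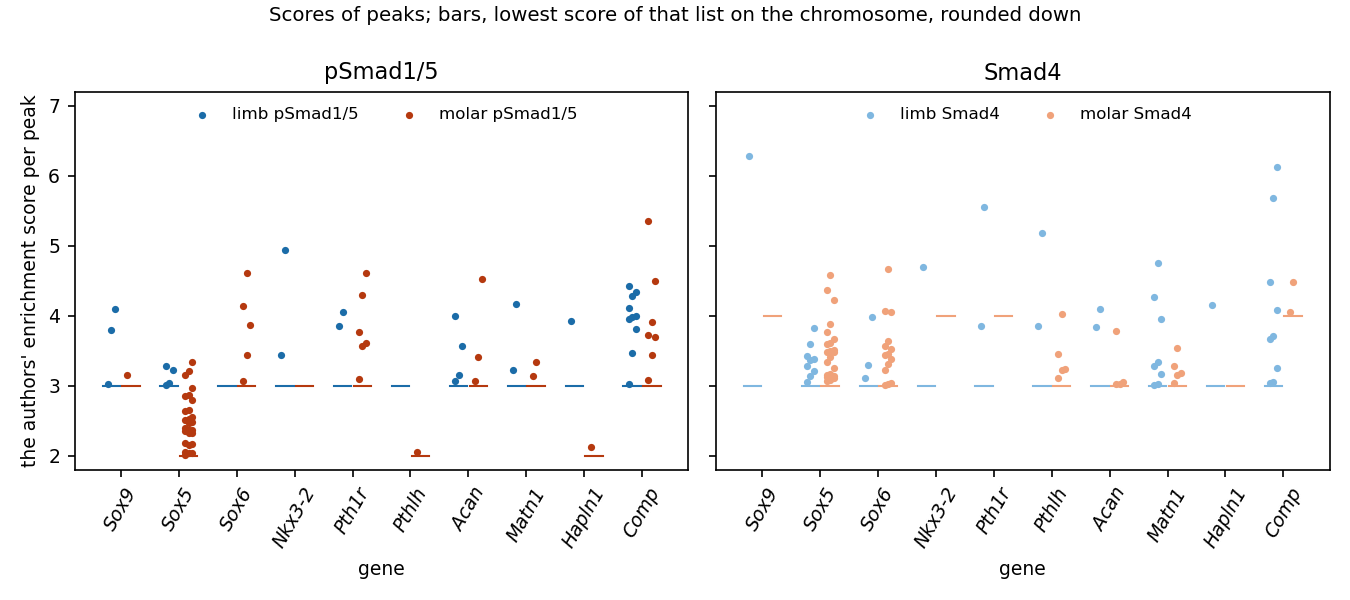
The authors' enrichment score (y axis) of every peak at each of the 10 genes (x axis), pSmad1/5 on the left and Smad4 on the right, with short bars for the lowest score of that list on the gene's chromosome, rounded down. Nearly all molar pSmad1/5 peaks at Sox5 lie between 2 and 3, a range that the limb list does not reach, and the highest points are limb Smad4 peaks at Sox9 (6.29), Comp (6.12 and 5.68) and Pth1r (5.56).

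Sox9 encodes the transcription factor that commits mesenchymal cells to cartilage. The gene (gene ID 20682) lies at chr11:112782210-112787757 on GRCm38.p6 and has no other protein-coding gene within 50 kb. It had 3 limb pSmad1/5 peaks, 1 limb Smad4 peak, 1 molar pSmad1/5 peak and no molar Smad4 peak. The limb peaks of the 2 antibodies met inside the gene: a Smad4 peak of score 6.29 at chr11:112785056-112785104 overlapped a pSmad1/5 peak of score 3.03 at chr11:112785067-112785223. The Smad4 peak also lay just beside a pSmad1/5 peak of higher score, 4.11, at chr11:112784955-112785026. The pSmad1/5 summits stood 94 and 90 bp from the Smad4 summit, which lay about the middle of the gene, 2667 bp from its upper-coordinate end. The Smad4 score was the highest of all 172 peaks at the 10 genes. The third limb pSmad1/5 peak lay 16815 bp beyond the upper-coordinate end with a score of 3.79. The molar pSmad1/5 peak was on the other side, 26890 bp beyond the lower-coordinate end, with a score of 3.16. No molar summit of either antibody lay inside Sox9, and the nearest molar Smad4 summit stood 104620 bp from the limb Smad4 summit. Since the molar Smad4 list begins at 4 on this chromosome, a molar peak of that score or higher would have been listed, but one under 4 would not.

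Sox9 stands in a gene desert, where distant enhancers are known to control it. The stretch between its neighbouring protein-coding genes, Gm11677 and Slc39a11, spans 1519 kb. For pSmad1/5 it held 11 peaks in limb and 10 in molar, and for Smad4 12 in limb and 1 in molar, where the molar Smad4 list begins at 4. This was 0.724 and 0.659 pSmad1/5 peaks per 100 kb, against 1.40 and 1.14 over the whole of chromosome 11, so the desert held fewer peaks per length than its chromosome in both tissues. With a score of at least 4, pSmad1/5 had 4 peaks in limb and 0 in molar, and Smad4 had 4 in limb and 1 in molar. The pSmad1/5 lists share the same lowest score there. In this comparison the tissues had like numbers of peaks but the higher scores were in limb. Genes in general leaned the same way within their 50 kb windows. For pSmad1/5 peaks of score 4 or more, 25.3% of all protein-coding genes had more in limb and 15.2% more in molar.

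Sox5 and Sox6 encode a pair of related Sox factors that lack an activation domain of their own and help Sox9 to occupy cartilage enhancers. They are the long genes of the list, Sox5 (gene ID 20678, chr6:143828425-144782287, minus strand) at 953.9 kb and Sox6 (gene ID 20679, chr7:115470872-116040776, minus strand) at 569.9 kb. At Sox5 there were 4 pSmad1/5 peaks in limb and 27 in molar, and 9 Smad4 peaks in limb and 23 in molar. Only 0.101% of all protein-coding genes had as many molar pSmad1/5 peaks, and 0.210% as many molar Smad4 peaks, but per length the numbers were ordinary: 2.56 molar pSmad1/5 peaks per 100 kb against 2.08 over chromosome 6, and 2.18 molar Smad4 peaks against 1.43. In limb Sox5 was below its chromosome, at 0.380 against 0.864 for pSmad1/5 and 0.854 against 1.06 for Smad4.

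The molar excess at Sox5 was of a different kind for each antibody. Of its 27 molar pSmad1/5 peaks, 24 scored under 3, below anything in the limb list on this chromosome, and the 3 that remain compare with 4 in limb. The highest molar pSmad1/5 score was 3.34 and the highest limb score 3.28. For Smad4 both lists start at 3, and there the molar count stayed at 23 against 9. The 3 Smad4 peaks of score 4 or more were all molar, at 4.59, 4.37 and 4.23.

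Along Sox5 the peaks were spread over the gene, with 1 dense group. In the molar Smad4 list 7 peaks stood within 12.6 kb, at chr6:144142257-144154959, 627.3 to 640.0 kb downstream of the 5′ end, with scores from 3.13 to 4.59. A limb Smad4 peak of score 3.21 fell in the same group and overlapped the molar peak of score 4.37, with summits 16 bp apart (chr6:144142475-144142523 in limb). A second shared site lay in limb alone, at chr6:144431294-144431350, where the pSmad1/5 peak (score 3.01) and the Smad4 peak (score 3.60) began at the same base and had summits 10 bp apart. The limb pSmad1/5 peaks, 4 in number, all lay in the part of the gene nearer to its 5′ end than to its 3′ end, whereas the other lists had peaks in both parts. Nearest to the 5′ end of Sox5 were molar Smad4 peaks at 2.35 kb inside the gene (score 3.67) and 6247 bp before it (score 4.23). No list had a peak within 1 kb of either end of the gene span. The RefSeq promoter window found for Sox5 was not at that 5′ end but inside the gene, at chr6:143947057-143947356. A molar Smad4 peak of score 3.07 lay close to this window, at chr6:143945677-143945725.

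Sox6 had no limb pSmad1/5 peak, 3 limb Smad4 peaks, 5 molar pSmad1/5 peaks and 14 molar Smad4 peaks. Its chromosome has the same lowest score in all 4 lists, so the larger molar counts do not come with a lower listed score. Per 100 kb, molar Smad4 stood at 2.09 against 1.99 over chromosome 7 and molar pSmad1/5 at 0.746 against 0.809, close to the chromosome in both. Limb Smad4 stood at 0.448 against 0.644, and the limb pSmad1/5 count of 0 compares with 0.891 peaks per 100 kb over the chromosome, so it was limb that lay below its chromosome.

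Of the 5 Sox6 peaks with a score of at least 4, the highest 3 stood toward the 5′ end or before it, and the other 2, molar Smad4 peaks of score 4.08 and 4.06, lay nearer the 3′ end or 7041 bp beyond it. All 5 molar pSmad1/5 and all 3 limb Smad4 summits lay before the gene or nearer to its 5′ end than to its 3′ end, the farthest at 200.6 and 202.7 kb from the 5′ end, whereas 8 of the 14 molar Smad4 peaks lay nearer to the 3′ end or beyond it. Near the 5′ end, molar pSmad1/5 peaks of score 4.62 (chr7:116033242-116033297) and 3.87 stood 7495 and 6868 bp inside the gene, and a limb Smad4 peak of score 3.98 stood at 8784 bp. The summits of these neighbouring limb and molar peaks were more than 1 kb apart, and no Sox6 peak overlapped a peak of another list. The highest molar Smad4 score was 4.67, at chr7:115999109-115999173.

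**Figure D3:**
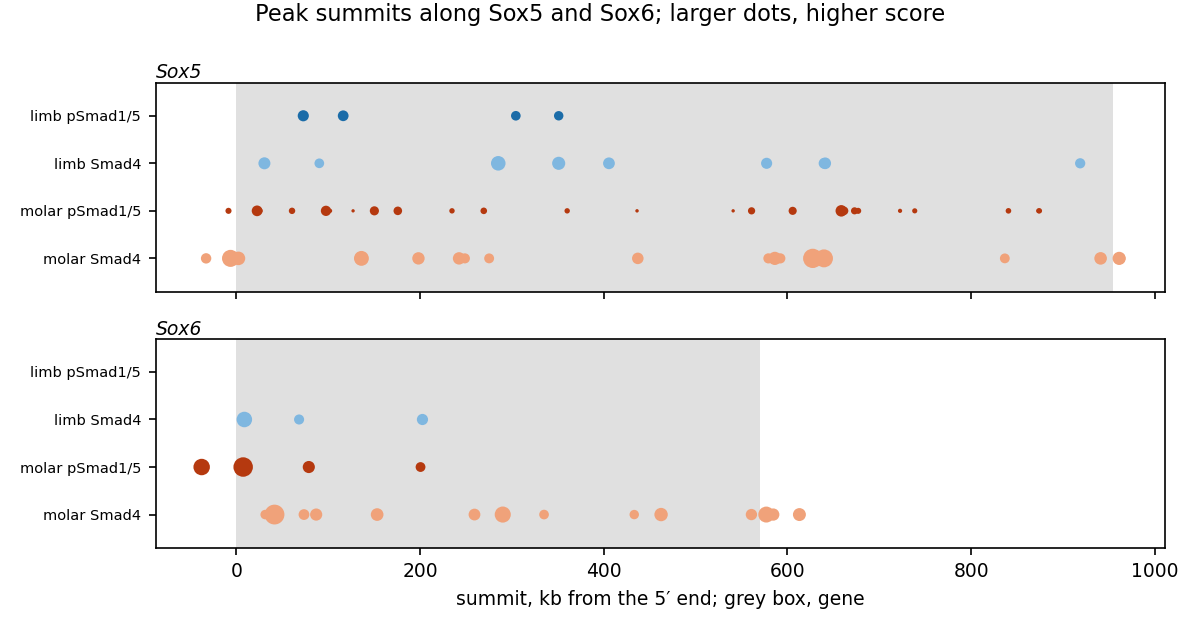
Position of each summit in kb from the 5′ end (x axis) along Sox5 and Sox6, with 1 row for each peak list, the gene as a grey box and larger dots for higher scores. The 27 molar pSmad1/5 peaks at Sox5 are many but small, the 7 grouped molar Smad4 peaks stand between 627.3 and 640.0 kb, and the row for limb pSmad1/5 at Sox6 is empty.

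Nkx3-2 encodes a homeobox repressor that acts downstream of hedgehog and BMP signals and keeps early cartilage from maturing. It is the smallest gene of the list (gene ID 12020, chr5:41761483-41764220, minus strand), and its peaks were in limb alone. The limb lists had 2 pSmad1/5 peaks and 1 Smad4 peak, and the molar lists had none. Chromosome 5 held only 0.899 molar pSmad1/5 and 0.317 molar Smad4 peaks per 100 kb, so a window of 102.7 kb without any is not unusual. The stronger pSmad1/5 peak, of score 4.95 at chr5:41767380-41767428, lay 3197 bp before the 5′ end and had the highest pSmad1/5 score of any limb peak at the 10 genes. The Smad4 peak, of score 4.70 at chr5:41761967-41762025, lay inside the gene at 528 bp from the 3′ end, 5406 bp from the pSmad1/5 summit. The Smad4 peak scored above 4, where the molar Smad4 list of this chromosome begins. With a p-value of at most 0.0001 it was not kept, and limb minus molar for Smad4 was then 0. The other pSmad1/5 peak (score 3.45), 27115 bp before the 5′ end, was nearer to Bod1l.

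Pthlh encodes parathyroid hormone-related protein, the secreted signal that keeps growth plate chondrocytes dividing, and Pth1r encodes its receptor. Pthlh (gene ID 19227, chr6:147252109-147264013, minus strand) had no limb pSmad1/5 peak, 2 limb Smad4 peaks, 1 molar pSmad1/5 peak and 5 molar Smad4 peaks. It is among the few members with a peak at the start of the gene. A limb Smad4 peak of score 5.19 (chr6:147263989-147264059) spanned the 5′ end, with its summit 18 bp upstream. The molar Smad4 peaks, which numbered more, all met that limit but were lower in score and farther away. The nearest to an end lay 2828 bp beyond the 3′ end with a score of 4.03. The other 4 lay 9660 to 45082 bp before the 5′ end with scores of 3.11 to 3.46. The molar pSmad1/5 peak inside the gene scored 2.05, a value that the limb list does not reach.

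The sequence at the start of Pthlh is shown because it carries the limb Smad4 peak closest to any end of the 10 genes. It runs from 5′ to 3′ on the minus strand of GRCm38.p6 (chr6:147263989-147264263, from RefSeq), and capitals mark the part called as a peak.

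Pthlh, limb Smad4: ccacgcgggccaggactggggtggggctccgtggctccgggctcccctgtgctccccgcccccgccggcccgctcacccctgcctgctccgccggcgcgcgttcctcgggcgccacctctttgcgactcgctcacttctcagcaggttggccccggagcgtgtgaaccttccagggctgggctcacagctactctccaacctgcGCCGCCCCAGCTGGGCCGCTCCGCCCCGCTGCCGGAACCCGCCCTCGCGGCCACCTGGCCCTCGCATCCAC

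Of the 275 bases 75.3% were G or C, and of the 71 bases of the peak 81.7%. GC-rich elements to which Smad1 and Smad5 are known to bind were searched for as GGCGCC and GGAGCC, and the Smad box as CAGAC, each on both strands. GGCGCC occurred once, at bases 109 to 114 of this run, and GGAGCC occurred at bases 25 to 30, 33 to 38 and 40 to 45 on the other strand, all upstream of the peak. None of these letters stood within the peak. Of 32851 RefSeq promoter windows (250 bases before to 50 after a start site), 11.9% held GGCGCC, 30.8% GGAGCC and 49.6% CAGAC, so a match to any of them is common.

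Pth1r (gene ID 19228, chr9:110722085-110747145, minus strand) had 2 pSmad1/5 peaks in limb and 6 in molar, and 2 Smad4 peaks in limb against none in molar. Most of these peaks were nearer to a neighbour: 9 of the 10 lay closest to Myl3 or Ccdc12, and the exception was a molar pSmad1/5 peak of score 3.76 inside Pth1r. In limb the antibodies met 15 kb before the gene, where a pSmad1/5 peak of score 4.05 (chr9:110762343-110762416) and a Smad4 peak of score 5.56 (chr9:110762431-110762487) had summits 85 bp apart without overlapping. Molar pSmad1/5 summits stood 1785 bp and more from this limb Smad4 summit. The highest molar pSmad1/5 peak, of score 4.62 (chr9:110781791-110781860), lay 34674 bp before the 5′ end and near a limb Smad4 peak of score 3.85 at 33912 bp. At 4.80 peaks per 100 kb, molar pSmad1/5 was 5.86 times as dense here as over chromosome 9, against 2.93 times for limb pSmad1/5.

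Acan encodes aggrecan, the large proteoglycan that gives cartilage its resistance to compression, and is a target of Sox9. The gene (gene ID 11595, chr7:79053226-79115099, plus strand) had 4 pSmad1/5 peaks in limb and 3 in molar, and 2 Smad4 peaks in limb and 4 in molar. All 4 lists have the same lowest score on chromosome 7, but they differ in length there. Relative to that chromosome, pSmad1/5 density at Acan was 2.77 times in limb and 2.29 times in molar. Smad4 density was 1.92 times in limb and 1.24 times in molar. Inside the gene and near its ends the tissues had peaks at different places. Limb pSmad1/5 peaks lay 976 bp before the 5′ end (score 3.57, chr7:79052230-79052285) and at 6766 and 20707 bp inside the gene (scores 3.07 and 3.16), while no molar pSmad1/5 summit lay inside the gene. Molar Smad4 peaks stood inside it at 16085 and 47473 bp from the 5′ end (scores 3.79 and 3.03), and no limb Smad4 summit did. The nearest limb Smad4 peak scored 4.11 and lay 1312 bp beyond the 3′ end (chr7:79116363-79116437), but only 616 bp from Hapln3. The other limb Smad4 peak lay inside Mfge8, so neither was nearest to Acan.

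Around 15 kb beyond the 3′ end of Acan, 3 of the 4 lists had a peak. The summits of molar pSmad1/5 (score 3.07), molar Smad4 (score 3.02) and limb pSmad1/5 (score 4.001) stood at 15146, 15609 and 15692 bp, and the latter pair were 83 bp apart. They did not overlap, and this site is nearer to Hapln3, whose body starts 1.927 kb beyond Acan. The highest molar peak was a pSmad1/5 peak of score 4.53 at chr7:79021708-79021761, 31508 bp before the 5′ end.

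Hapln1 encodes the link protein that fixes aggrecan to hyaluronan. With 3 peaks in all, as many as Nkx3-2, it was one of the genes with the fewest (gene ID 12950, chr13:89540529-89611832, plus strand): 1 limb pSmad1/5 peak, 1 limb Smad4 peak, 1 molar pSmad1/5 peak and no molar Smad4 peak. Both limb peaks lay near the start of the gene. The pSmad1/5 peak, of score 3.92 at chr13:89540441-89540489, had its summit 74 bp before the 5′ end, and the Smad4 peak, of score 4.16 at chr13:89549095-89549200, lay 8658 bp inside. The molar peak scored 2.13 and lay 44785 bp beyond the 3′ end, nearer to Vcan. Chromosome 13 held 1.88 molar Smad4 peaks per 100 kb, and none of them fell in the window of 171.3 kb. This limb pSmad1/5 peak at a gene start is shown on the plus strand of GRCm38.p6 (chr13:89540386-89540528, from RefSeq), up to the base before the gene, with the called peak in capitals.

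Hapln1, limb pSmad1/5: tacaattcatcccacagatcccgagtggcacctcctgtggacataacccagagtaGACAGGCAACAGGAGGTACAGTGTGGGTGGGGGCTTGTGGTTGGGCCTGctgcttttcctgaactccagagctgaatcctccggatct

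The 143 bases were 55.2% G or C and the 49 bases of the peak 63.3%, both lower than at Pthlh. None of the letters searched for at Pthlh occurred in them. RefSeq promoter windows were found for 8 of the 10 genes, 15 windows in all, and these 2 were the only ones with a summit. Of the 15 windows, 2 held GGCGCC (those of Pthlh and Nkx3-2), while 8 held GGAGCC and 10 held CAGAC. The Sox-type letters ACAAAG and ACAATG stood in 6 and 3 windows, with backgrounds of 18.7% and 12.6%, and the palindromic Smad element in none (0.213%). Sox6 and Pth1r have several windows each, so these are not counts of separate genes. Most of the windows with ACAAAG and most of those with ACAATG belong to Sox6 alone, and several of those with GGAGCC to Pth1r.

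Matn1 encodes matrilin 1, a filament-forming matrix protein of cartilage, and Comp encodes cartilage oligomeric matrix protein, a thrombospondin that binds collagens. Matn1 (gene ID 17180, chr4:130944385-130955476, plus strand) had 2 pSmad1/5 peaks in each tissue, 8 limb Smad4 peaks and 5 molar Smad4 peaks. Of these, 1 limb pSmad1/5 peak and 3 limb Smad4 peaks were nearer to Laptm5. Counting peaks nearest to Matn1, Smad4 had 5 in limb and 5 in molar. The lowest score is the same in all lists on this chromosome. Around Matn1 all 4 lists were denser than over chromosome 4. The Smad4 density was 4.85 times that of the chromosome in limb and 2.32 times in molar, and the pSmad1/5 density 3.13 and 2.04 times. Limb Smad4 included a peak 861 bp beyond the 3′ end (score 3.29) and the highest score at the gene, 4.76, at chr4:130968628-130968679. The latter overlapped a molar Smad4 peak of score 3.15 (chr4:130968654-130968749), with summits 13197 and 13238 bp beyond the 3′ end, 41 bp apart. All molar Smad4 summits lay beyond the 3′ end, with scores of 3.05 to 3.54. Inside the gene there was only a molar pSmad1/5 peak (score 3.34), 1416 bp from the 3′ end.

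Comp (gene ID 12845, chr8:70373548-70382066) had the most peaks of the shorter genes in limb, with 10 pSmad1/5 and 9 Smad4 peaks, and it had 7 molar pSmad1/5 and 2 molar Smad4 peaks. Only 3.39% of protein-coding genes had as many limb pSmad1/5 peaks. It lies in a crowded region with 4 other protein-coding genes in its window, and 24 of its 28 peaks were nearer to Crtc1, Upf1 or Cers1. The density around it was 5.41 to 7.66 times that of chromosome 8 in all 4 lists. Of the peaks nearest to Comp itself there was 1 in each list. For molar pSmad1/5 this was the highest of that list at the 10 genes, a peak of score 5.36 at chr8:70373481-70373554 whose summit was 4 bp from the lower-coordinate end. For limb pSmad1/5 it was a peak of score 3.95 inside the gene, 2966 bp from that end. For Smad4, the limb peak (score 3.67, chr8:70365636-70365740) and the molar peak (score 4.48, chr8:70365711-70365760) overlapped, with summits 7844 and 7803 bp beyond the same end, 41 bp apart. With molar Smad4 starting at 4 on this chromosome, the limb Smad4 count to set beside 2 molar peaks is 4 rather than 9.

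**Figure D4:**
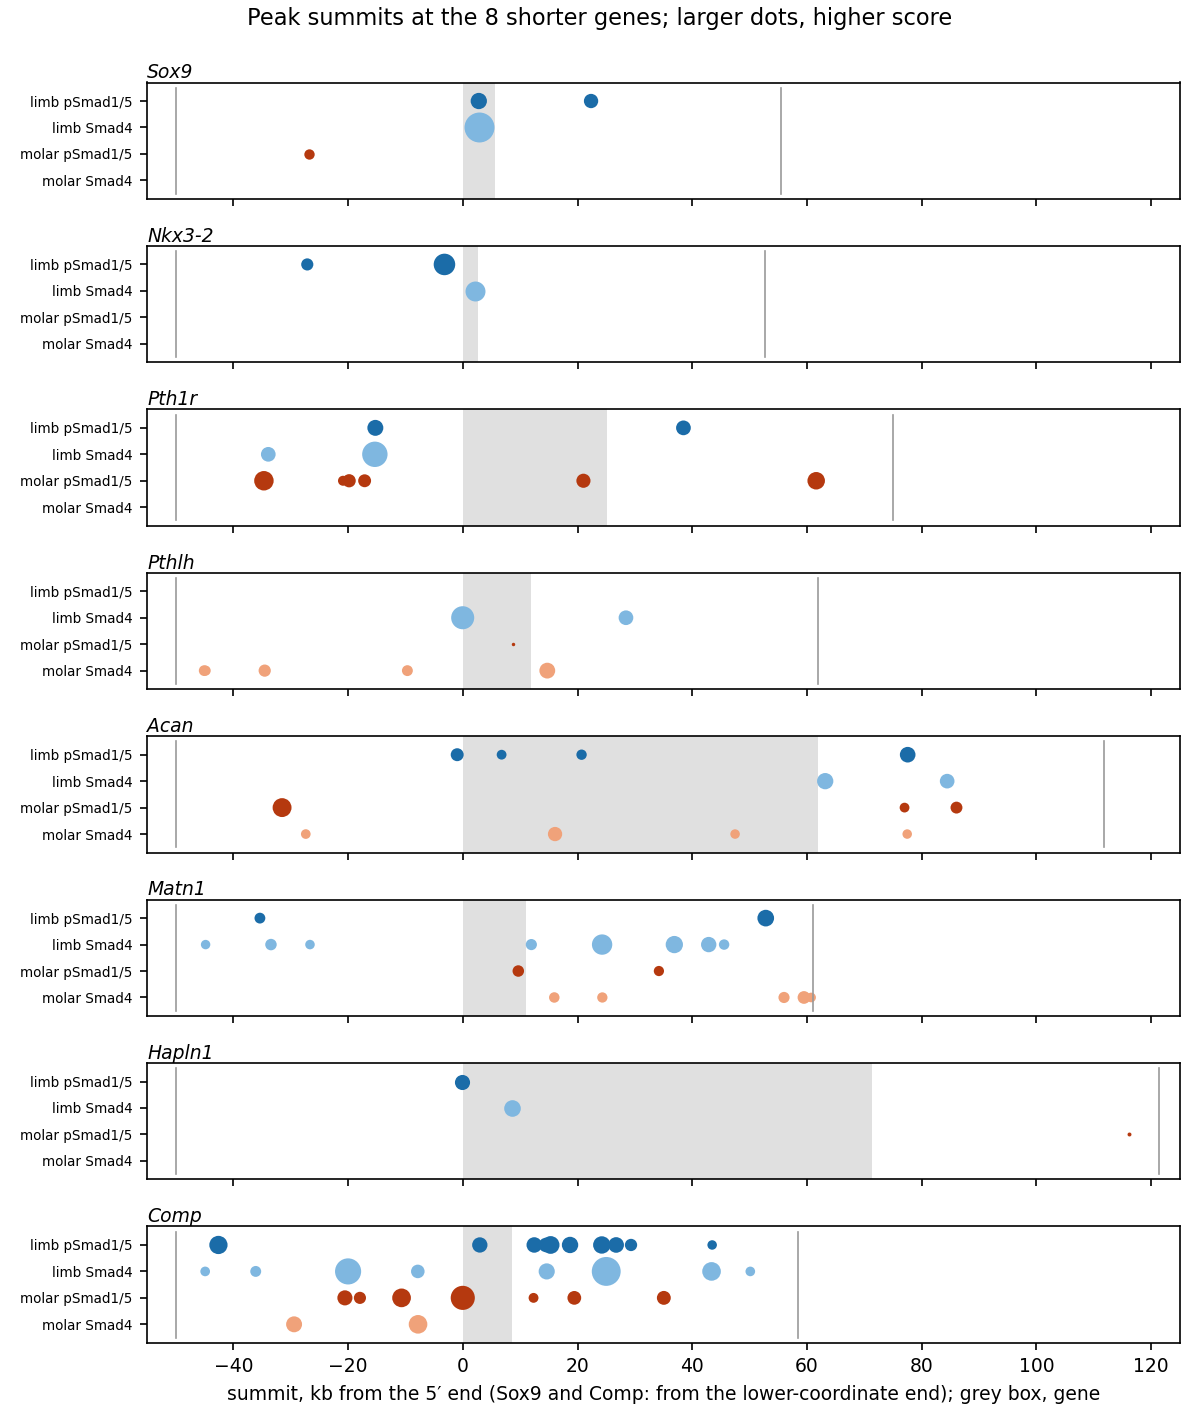
Summits in kb from the 5′ end (x axis; for Sox9 and Comp from the lower-coordinate end) at the 8 shorter genes, with 1 row for each peak list, the gene as a grey box, vertical lines at the limits of the 50 kb window and larger dots for higher scores. Limb summits of both antibodies stand together inside Sox9 and 15 kb before Pth1r, limb peaks mark the starts of Pthlh and Hapln1, and a molar pSmad1/5 peak marks an end of Comp.

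Peaks within 1 kb of a gene end were few and mostly in limb. For limb pSmad1/5 these were at 2 of 10 genes, Acan and Hapln1 (background 15.5% of genes), and for limb Smad4 at 3, Nkx3-2, Pthlh and Matn1 (21.8%). In molar there was 1 for pSmad1/5, Comp (20.7%), and none for Smad4 (7.76%). Each count was within about 1 gene of what the background share gives for 10 genes. The long genes Sox5 and Sox6 had no peak this close in any list, and neither did Sox9 and Pth1r among the shorter genes.

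Coincidence between lists was limited to 5 sites, formed by 10 of the 172 peaks (5.81%, 95% interval 2.82 to 10.4%), against 4.15% of all peaks in the series. Both peaks of a site are counted, so the 10 peaks are not independent and this interval is too narrow. A pair of these sites joined limb pSmad1/5 with limb Smad4, at Sox9 and Sox5. So 2 of 10 genes had such a limb site, where the background was 12.7% of genes, and 7.14% of the members' limb pSmad1/5 peaks (0.877 to 23.5%) were shared, against 4.85% of that list. The other 3 sites joined limb with molar Smad4, at Sox5, Matn1 and Comp. They made up 7.89% of the members' limb Smad4 peaks (1.66 to 21.4%) and 5.66% of the molar ones (1.18 to 15.7%), against 0.518% and 0.443% of the whole lists. No member peak was shared between limb and molar pSmad1/5, out of 28 limb and 53 molar peaks, nor between molar pSmad1/5 and molar Smad4. Over the whole lists 1.70% of limb and 1.11% of molar pSmad1/5 peaks overlapped each other, and 0.589% of molar pSmad1/5 peaks overlapped molar Smad4. At such shares 0 of 28 or of 53 peaks is near the background. With so few sites the intervals are wide.

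Over the 10 windows together, pSmad1/5 peaks were 1.10 times as dense in limb and 1.65 times as dense in molar as on the same chromosomes. For Smad4 the ratios were 1.16 in limb and 1.75 in molar. In these sums Sox5 and Sox6 make up most of the length. Without them the pSmad1/5 ratios were 2.58 and 1.79 and the Smad4 ratios 2.16 and 1.44, so that the order of the tissues turned. Those sums include Comp, at 5.41 to 7.66 times its chromosome in the 4 lists, with 24 of its 28 peaks nearer to other genes. When density was taken gene by gene as a ratio to the gene's own chromosome, the members' median for pSmad1/5 was 1.79 in limb and 1.08 in molar, against 1.25 and 1.21 over all protein-coding genes. The Smad4 medians were 1.24 in limb and 1.15 in molar, against 1.27 and 1.04. The widest gap was that of limb pSmad1/5, where 6 of 10 members exceeded their chromosome, as did 55.9% of all genes. Within the list the ratio ran from 0 at Sox6 and Pthlh to 7.35 at Comp for limb pSmad1/5, so the median describes a mixed set.

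A further 36 genes of cartilage matrix and growth plate signalling, none of them among the 10, were counted in the same way. There were 27 with a limb pSmad1/5 peak and 30 in each of the other 3 lists. More limb pSmad1/5 peaks stood at 8 of them and more molar at 21, and for Smad4 the numbers were 14 and 18. The shares of all genes given above for these counts were 30.0% and 43.3% for pSmad1/5 and 42.8% and 32.2% for Smad4. With a common lowest score the pSmad1/5 split was 13 to 15 (39.9% and 28.4% of all genes) and the Smad4 split 8 to 20 (31.4% and 37.6%). Among peaks scoring 4 or more, the pSmad1/5 split was 10 to 11 (25.3% and 15.2% of all genes). The Smad4 split was 6 to 14 (30.9% and 20.3%), where the 10 genes stood at 7 to 2. This difference between the gene lists was not tested. Among the best known, Col2a1, the main cartilage collagen, had 6 pSmad1/5 peaks in limb and 5 in molar, 12 Smad4 peaks in limb and 3 in molar, with a limb Smad4 peak 17 bp from an end. Ihh, the hedgehog signal of the growth plate that controls Pthlh, had 2 pSmad1/5 peaks in limb and 15 in molar, with a highest score of 3.495 in limb and 2.887 in molar, and 7 Smad4 peaks in limb and 4 in molar. On its chromosome the lowest molar pSmad1/5 score is 2, rounded down. Fgfr3, a receptor that restrains chondrocyte growth, had 10 pSmad1/5 peaks in limb and 1 in molar, 12 Smad4 peaks in limb and 1 in molar, where the molar Smad4 list begins at 4. Runx2, a driver of chondrocyte maturation and bone formation, had 12 pSmad1/5 peaks in limb and 6 in molar, 5 Smad4 peaks in limb and 10 in molar.

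Some of these genes had a peak in a single tissue. For pSmad1/5 there were 3 with limb peaks alone (Mia, Col10a1 and Scrg1, with highest scores of 3.93, 3.63 and 3.02) and 6 with molar peaks alone, led by Mef2c (5.61), Snorc (4.57) and Trps1 (4.31). For Smad4 there were 4 in limb alone, led by Col9a3 (5.02), Cytl1 (3.78) and Chad (3.64), all 3 on chromosomes where the molar Smad4 list begins at 4. With molar Smad4 peaks alone there were 4, led by Foxa3 (4.80), Prg4 (4.23) and Epyc (3.43). The share of all protein-coding genes with a peak in a single tissue was not computed, so these counts have no background. Matrix genes of cartilage stood on both sides, such as Col9a3 in limb alone and Epyc in molar alone for Smad4. Col10a1 had limb peaks alone for pSmad1/5 and molar peaks alone for Smad4.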

How the data were processed

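Peaks came from ChIP-seq of limb and molar germ at E13.5, from tissue fixed for 15 min in 1% formaldehyde and sequenced on a HiSeq 4000, per the labels' protocols. The authors called peaks with BCP in transcription factor mode, per the labels, on mm10. Per the submitters' processing notes, tools used included bcl2fastq, Bowtie2, SAMtools, deepTools and bedtools, with no version or role stated. Use of the inputs and treatment of duplicates are not given in the sources used here. The deposited lists give per peak its length, summit, enrichment score and p-value, and no read counts. The deposited score described and filtered peaks, and the deposited p-value served mainly as a filter. Starts were shifted by 1 base to 1-based positions, and 4 peaks outside chromosomes 1 to 19, X and Y were left out.

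Gene positions, strands and promoter sequences were RefSeq's on GRCm38.p6. Strand came from the promoter table, so Sox9 and Comp are described by lower and upper coordinate. No distinction was made between exon and intron, and no genome sequence was used, so the sequences shown are promoter windows. An overlap of 1 bp or more made a peak shared. A chromosome's density divides its peaks by the position of its last peak. Intervals are exact (Clopper-Pearson) 95% binomial intervals. With 1 library per group no test was made.

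The 10 genes and the other lists were chosen with earlier results of these data known. The 10 genes are all named. Of the 36 others, 4 are always named, with up to 3 genes per antibody that had peaks in a single tissue, by highest score. Sequences shown are promoters of members with a summit. The alternatives were other distances, score and p-value limits, stricter and looser sharing, peaks nearest to the member, and leaving out Sox5 and Sox6. A common lowest score per chromosome, the Sox9 stretch and the groups along Sox5 and Sox6 were added after the data were seen. Counting was tested on simulated data. The work was done in Python 3.11.15 with pandas 2.3.3, numpy 2.4.6, matplotlib 3.10.9 and scipy 1.17.1.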

Additional observations from a re-analysis of the deposited data

Results flagged for a closer look

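At 2 genes the difference between tissues in the number of peaks pointed opposite ways for the antibodies. This difference was not tested, since each value rests on 1 library. At Pth1r, limb minus molar was -4 for pSmad1/5 peaks (2 against 6) and 2 for Smad4 peaks (2 against 0). The molar Smad4 list begins at a score of 4 there, and with the limb list held to the same score the Smad4 counts were 1 and 0. At Acan, limb minus molar was 1 for pSmad1/5 peaks (4 against 3) and -2 for Smad4 peaks (2 against 4), on a chromosome where all 4 lists have the same lowest score. That chromosome held 936 limb and 2887 molar Smad4 peaks, however. As a ratio to the chromosome, Smad4 density at Acan was 1.92 in limb and 1.24 in molar. For pSmad1/5 the ratios were 2.77 and 2.29, so by this measure both antibodies were denser in limb.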

How the results depend on the processing

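Among values recomputed for the summaries of the 10 genes and of the other cartilage genes, 109 stayed within 1.5 times of the reported count or ratio, or within the interval of the reported share, and 25 moved further. No paired analysis was possible because each group has 1 library, and for the same reason no library could be left out.

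With a score of at least 4, 4 members had a molar pSmad1/5 peak, the limb share was 58.8% for pSmad1/5 and 57.1% for Smad4, no peak was shared between lists (0%), and density over all windows was 1.76 times the chromosomes for limb pSmad1/5 (1.10 with all peaks) and 1.01 for molar Smad4 (1.75 with all peaks). Of the other cartilage genes, 12, 13 and 15 then had a limb pSmad1/5, limb Smad4 and molar pSmad1/5 peak. With a score of at least 3, and with a common lowest score per chromosome (added after the data were seen), the limb share for pSmad1/5 was 50.9% in both cases. Within 1 kb of the gene or inside it, 5 members had a limb pSmad1/5 and 3 a molar Smad4 peak, limb pSmad1/5 density was 0.676, and 17 and 18 other cartilage genes had a limb pSmad1/5 and a molar Smad4 peak. Without Sox5 and Sox6 the limb share was 53.3% for pSmad1/5 and 61.9% for Smad4, and density was 2.58 for limb pSmad1/5 and 2.16 for limb Smad4 (1.16 with all 10 genes). Counting peaks nearest to the member, the limb share for Smad4 was 31.1% and 3 members had more limb Smad4 peaks. Shared peaks made up 1.83% with a p-value of at most 0.0001, 2.33% with overlap of 50% of both peaks and 14.0% with summits within 500 bp. Score, p-value and distance limits leave fewer peaks by construction; beyond that the cause was not tested.

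For single genes, limb minus molar changed sign in 5 cases, kept its sign in 123 and became or left 0 in 32. For Sox5 pSmad1/5 it became 1 with a score of at least 3 and 1 with the common lowest score, for Comp pSmad1/5 -1 with a p-value of at most 0.0001, for Pthlh Smad4 1 within 1 kb, and for Acan Smad4 1 with a score of at least 4. Read depth is unknown in all lists, so an absent peak does not show an absence of binding.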
